A study of Rattus norvegicus with 23 samples.

Results

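The 5 genes described here, *Penk*, *Tceal7*, *Myot*, *Vsnl1* and *Mettl24*, are genes of the rat heart that separate the left ventricle (LV) from the right ventricle (RV). They were selected on the LV minus RV difference of their signals, because these differed strongly between the LV and RV arrays of these same data, so their LV and RV values are given as a description and were not tested. They are 5 of the 16544 genes that could be named on the array and 5 of the 16089 that were bright enough to enter the tests. The values are the normalized signals deposited by the authors, with the highest probe of a gene taken on each array. Contrasts among the other 4 regions, which the choice of the genes did not use, were tested.

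The arrays measured RNA from male Wistar rats aged 8 to 11 weeks, 12 animals in all, with no treatment given in the labels. There were 4 arrays each of LV, the left atrium (LA), the sinoatrial node region (SA, labeled sinoauricular node), the pulmonary vein (PV) and the pulmonary artery (PA), and 3 arrays of RV. RV was the free wall, LA was the part next to PV, and each SA sample pooled tissue of 2 rats. Since the tissue of 1 left ventricle was divided in 3, LV arrays may share an animal, and nothing in the labels says that the arrays of a region came from separate rats. The p-values therefore measure only the spread between these samples.

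The left ventricle pumps against the pressure of the systemic circulation and the right ventricle against the lower pressure of the lung, and the chambers arise largely from different progenitor fields of the embryonic heart. *Penk* encodes proenkephalin, the precursor that is cut into enkephalins, peptides that act on opioid receptors, and heart muscle is a known site of its mRNA. *Tceal7* encodes a nuclear protein of the transcription elongation factor A like family on the X chromosome, and *Myot* encodes myotilin, which binds alpha-actinin and filamin C at the Z-disc of striated muscle. *Vsnl1* encodes visinin-like 1, a calcium-binding protein of the neuronal calcium sensor family. *Mettl24* encodes a methyltransferase-like protein.

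The promoters of the members are shown so that the letters near the starts of genes high in LV and of genes high in RV can be compared. A RefSeq promoter on the GRCr8 assembly was matched for 3 of the 5 genes, as 300 bases that run from 250 before to 50 after the transcription start, 5′ to 3′ on the strand of the gene. *Tceal7*, higher in LV, lies at chrX:104019834-104020133 on the plus strand. *Vsnl1* and *Mettl24*, higher in RV, lie at chr6:39878507-39878806 on the minus strand and at chr20:45724805-45725104 on the plus strand. *Penk* and *Myot* are named only. Capitals mark every match to 1 of 8 motifs searched on both strands.
Tceal7: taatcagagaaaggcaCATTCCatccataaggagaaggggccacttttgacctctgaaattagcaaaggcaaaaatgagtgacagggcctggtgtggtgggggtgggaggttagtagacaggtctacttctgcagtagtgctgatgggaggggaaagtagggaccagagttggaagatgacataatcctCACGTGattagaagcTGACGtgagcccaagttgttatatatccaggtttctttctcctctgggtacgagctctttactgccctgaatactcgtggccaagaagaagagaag
Vsnl1: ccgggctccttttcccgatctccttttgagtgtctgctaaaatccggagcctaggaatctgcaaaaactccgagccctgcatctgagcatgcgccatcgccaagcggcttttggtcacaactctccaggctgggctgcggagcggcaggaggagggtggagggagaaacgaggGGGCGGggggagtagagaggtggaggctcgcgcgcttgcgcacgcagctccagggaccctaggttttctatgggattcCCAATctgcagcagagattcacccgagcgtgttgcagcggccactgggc
Mettl24: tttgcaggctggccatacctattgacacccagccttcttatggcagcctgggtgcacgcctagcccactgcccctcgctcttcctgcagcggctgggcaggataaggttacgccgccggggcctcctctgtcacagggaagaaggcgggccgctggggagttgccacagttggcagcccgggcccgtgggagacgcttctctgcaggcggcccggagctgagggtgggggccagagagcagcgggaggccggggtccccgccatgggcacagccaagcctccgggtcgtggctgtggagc

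The *Tceal7* window held CATTCC, the letters of a TEAD site, starting 234 bases before the start, the E-box CACGTG 61 bases before it and TGACG, the core of a cyclic AMP response element, 46 bases before it. The *Vsnl1* window held the GC box GGGCGG 77 bases before the start and CCAAT 1 base after it. In the *Mettl24* window none of the 8 motifs was found, and no motif was found in more than 1 of the 3 windows. Over 33469 rat promoters of the same length, CATTCC was present in 14.2%, CACGTG in 6.42%, TGACG in 21.2%, GGGCGG in 33.1% and CCAAT in 37.5%. The other motifs searched were TATAAA (14.2%), AGATAA (11.6%) and the MEF2 site (3.84%). The windows differed in base composition, with 48.0% G and C for *Tceal7*, 61.3% for *Vsnl1* and 69.0% for *Mettl24*, against a median of 51.7% over all promoters. These matches describe the letters and not binding.

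The arrays lay on 3 slides in 2 rows, and the share of probes that the scanner software marked as well above background ranged from 58.6% to 79.8%. It was 72.7% to 79.8% in the first row and 58.6% to 69.4% in the second. Of LA and of RV only replicate 2 lay in the second row, and of SA and of PV only replicate 2 lay in the first. The part of the row in the marks of dim genes and in the signals of RV replicate 2 was not tested. Ventricular markers were used to check LV and RV as ventricular tissue, and these markers do not tell LV from RV. *Irx4*, a transcription factor of the ventricles, had a log2 signal of 12.44 ± 0.12 (SD, n = 4) in LV and 12.31 ± 0.09 (n = 3) in RV, and *Myl2*, the ventricular regulatory light chain, 19.10 ± 0.14 and 18.90 ± 0.16. All log2 values are log2(normalized signal + 1), a scale that understates the changes of dim genes. RV replicate 2 stood apart from the other 2 RV arrays, and the results it moves most are also given without it.

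Between LV and RV, *Penk*, *Tceal7* and *Myot* were higher in LV and *Vsnl1* and *Mettl24* were higher in RV. LV and RV arrays did not overlap for any of the 5 genes, which the choice of the genes largely fixes. The share of all genes without such overlap is not given here, so no weight is put on the lack of overlap. Over all 16089 genes, 0.522% were called between LV and RV in the limma fit at an adjusted p below 0.05, 0.298% as higher in LV and 0.224% as higher in RV, and 10.7% had an unadjusted p below 0.05. These are 48 and 36 genes, against 23 and 18 without RV replicate 2 and 9 and 4 with only the ventricular arrays in the fit. The median LV minus RV difference of all genes was 0.005 on the log2 scale, and its 5th and 95th percentiles were -0.59 and 0.58. By the size of the difference, *Penk* ranked 2, *Tceal7* 3, *Mettl24* 12, *Vsnl1* 14 and *Myot* 88 of 16089. Without RV replicate 2 the ranks were 2, 3, 65, 14 and 61 of 16059. The LV side of *Mettl24* lay at background on all 4 arrays, so its rank rests on a measured difference that is uncertain in size, and with LV raised to its detection floor the difference was -1.70. Whether more cells of a type or more RNA per cell lies behind a higher signal cannot be told apart in these bulk samples.

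**Figure D1:**
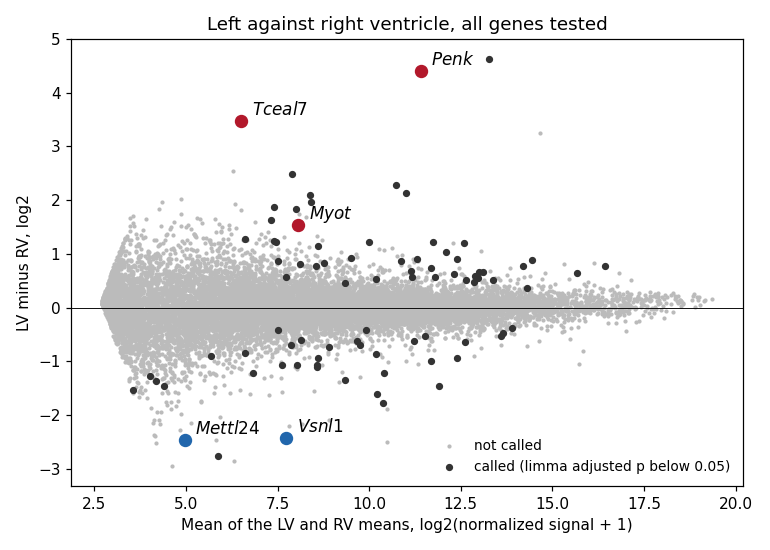
Each gray point is 1 of 16089 genes, with the mean log2 signal of the ventricles on the horizontal axis and the LV minus RV log2 difference on the vertical axis; black points passed the limma test and the 5 chosen genes are colored, red where higher in LV and blue where higher in RV. *Penk* (4.40) and *Tceal7* (3.47) lie near the top edge, *Vsnl1* (-2.43) and *Mettl24* (-2.47) near the bottom edge, and *Myot* (1.53) closer to the bulk of the genes.

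*Penk*, the proenkephalin gene, had normalized signals of 11361.1, 11732.9, 10453.7 and 17454.9 on LV replicates 1 to 4. On RV replicates 1 to 3 it was 584.6, 725.3 and 484.4. Every LV array was thus far above every RV array, and the mean log2 signal was 13.61 ± 0.33 (SD, n = 4) in LV and 9.21 ± 0.29 (n = 3) in RV, a difference of 4.40 or 21.1-fold. The difference was 4.0 on slide 2 and 4.57 on slide 3, and 4.35 in the first array row and 4.30 in the second; slide 1 held no RV array. Leaving out any 1 array gave between 4.24 and 4.55.

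In the other regions *Penk* was lower than in LV on every array. In PA its signals were 853.8, 550.0, 410.5 and 462.1, a range that covers the RV arrays. LA gave 162.0, 238.9, 144.7 and 103.8, PV gave 81.6, 134.1, 140.9 and 154.3, and SA gave 82.3, 92.3, 112.9 and 89.6. The order of the means was LV, RV, PA, LA, PV and SA, in which RV overlapped with PA, LA with PV and PV with SA. All 23 arrays were well above background for *Penk*. Among the regions not used to choose it, *Penk* was higher in PA than in LA by 1.81 (standard error 0.26, adjusted p = 6.56e-06), than in PV by 2.13 (adjusted p = 8.15e-07) and than in SA by 2.53 or 5.78-fold (adjusted p = 6.26e-08), with no overlap between the arrays. With normexp background correction these differences were 1.48, 1.59 and 1.71. *Penk* did not pass between LA and SA, where the difference was 0.72 (95% confidence interval 0.18 to 1.27, adjusted p = 0.0701) and the arrays overlapped. It passed with array row as a block (0.83, adjusted p = 0.0497) and without LA replicate 4 or PA replicate 1 (adjusted p = 0.0249 and 0.0463). With normexp background correction the difference was 0.23 and did not pass. PV minus LA was -0.32 (adjusted p = 0.509) and PV minus SA was 0.40 (adjusted p = 0.502).

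**Figure D2:**
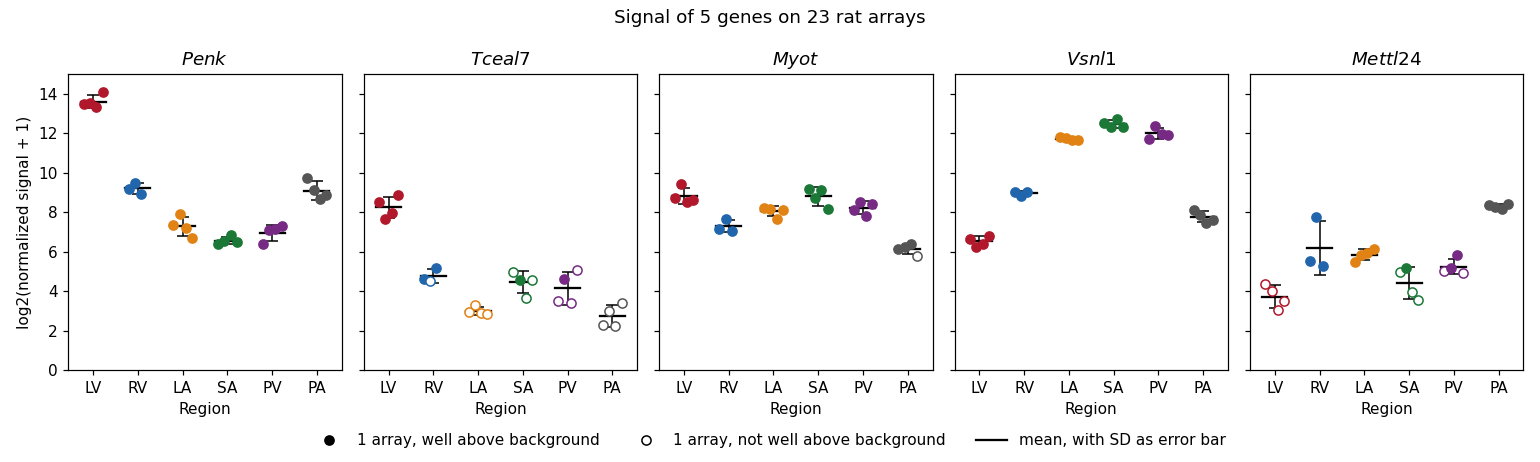
Points are the log2(normalized signal + 1) of each of the 23 arrays by region for the 5 genes, filled where the highest probe was well above background and hollow where it was not; long bars are means and error bars SDs. *Penk* and *Tceal7* stand highest in LV, *Vsnl1* is high in SA, PV and LA and lowest in LV, *Mettl24* is highest in PA, and *Myot* is lowest in PA.

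The array carries 2 *Penk* probes, and they do not give the same picture. The values of the ventricles come from A_42_P749184. The probe A_44_P497807 ranged from 53.1 to 145.5 in LV and from 42.7 to 296.7 in RV, with an LV minus RV difference of -0.17. It was the higher probe on 3 of 23 arrays only, LA replicate 4 and SA replicates 3 and 4. Without it those arrays would read 70.4, 96.7 and 76.1. Within A_44_P497807 the mean log2 signal was 5.47 in PA, 5.56 in LA, 5.41 in PV and 6.37 in SA. The LV and RV separation of *Penk*, and its higher level in PA than in LA, PV and SA, thus rest on 1 probe.

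*Tceal7* had 1 probe, with signals of 359.7, 198.6, 246.9 and 469.9 in LV and 23.3, 22.2 and 35.2 in RV. All 4 LV arrays and 2 of the 3 RV arrays were well above background. The lowest LV array exceeded the highest RV array, and the mean log2 signals of 8.24 ± 0.55 (SD, n = 4) and 4.77 ± 0.35 (n = 3) differed by 3.47, or by 3.44 with the dim RV array raised to the detection floor of that array, the lowest signal marked as well above background. On slides 2 and 3 the difference was 3.38 and 2.89, in the first and second array rows 3.33 and 3.72, and with 1 array left out between 3.26 and 3.67. With normexp background correction it was 1.99.

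Outside LV *Tceal7* lay near the limit of detection. SA gave 30.9, 23.0, 11.8 and 22.5 and PV gave 10.2, 23.6, 9.7 and 32.3, each well above background on 1 of 4 arrays. LA gave 6.8, 8.7, 6.4 and 6.3 and PA gave 3.9, 7.1, 3.7 and 9.5, none of them well above background. RV, SA and PV overlapped with each other, and LA overlapped with PA. In the limma fit *Tceal7* was called lower in LA than in SA (log2 difference -1.45, adjusted p = 0.0121, and -0.70 with a pseudocount of 16). With the LA arrays raised to their detection floor and SA as measured, SA was 1.55-fold higher. This is no lower limit, since SA was well above background on 1 of 4 arrays. *Tceal7* was also lower in PA than in SA (-1.72, adjusted p = 0.000575, and -0.51 with normexp background correction). With PA so raised, SA was 1.1-fold higher. Against PV it was lower in PA by -1.41 (adjusted p = 0.00338), with no fold that the background allows. That call was lost with normexp background correction (-0.30, adjusted p = 0.176). PV minus LA was 1.15 (adjusted p = 0.0489), a call that was lost in 7 of 13 other settings and in 15 of the 23 fits with 1 array left out. With LA so raised and PV as measured, PV was 1.25-fold higher, again no lower limit. PV and SA did not differ past the threshold (-0.31, adjusted p = 0.769), and PA and LA, both below background, gave -0.27 (adjusted p = 0.601).

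*Myot*, the gene of the Z-disc protein myotilin, had signals of 424.0, 700.2, 367.5 and 386.0 in LV and 142.6, 201.4 and 132.6 in RV. Here too the lowest LV array lay above the highest RV array. The mean log2 signals were 8.83 ± 0.43 (SD, n = 4) and 7.30 ± 0.32 (n = 3), a difference of 1.53 or 2.89-fold. Of the 5 genes it had the smallest difference. The values were 1.11 on slide 2, 2.03 on slide 3, 1.52 in the first array row and 1.36 in the second, and between 1.32 and 1.71 with 1 array left out.

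Unlike *Penk* and *Tceal7*, *Myot* was not confined in its high signals to LV. SA gave 572.3, 425.8, 560.6 and 287.9, which overlapped with LV, PV gave 275.1, 372.0, 227.3 and 343.2, and LA gave 300, 285.4, 203.3 and 277.9. Neighbors in the order LV, SA, PV, LA overlapped, while RV lay below LA without overlap and PA, at 70.5, 75.6, 82.8 and 53.7, lay below RV. *Myot* was lower in PA than in LA by a log2 difference of -1.90 (standard error 0.24, adjusted p = 1.22e-06), than in PV by -2.08 (adjusted p = 3.73e-07) and than in SA by -2.66 or 6.31-fold (adjusted p = 9.95e-09). With normexp background correction the 3 differences were -1.09, -1.36 and -1.85. LA minus SA was -0.75 (adjusted p = 0.0404) although the arrays overlapped, and the call was lost in 4 of 13 other settings and in 7 of the 23 fits with 1 array left out. PV did not differ from LA (0.18, 95% confidence interval -0.33 to 0.69, adjusted p = 0.721) or from SA (-0.57, interval -1.08 to -0.07, adjusted p = 0.234) past the threshold.

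Of the 3 *Myot* probes, A_44_P1361231 was the highest on 20 of 23 arrays. A_44_P217919 gave a similar LV minus RV difference of 1.74. A_44_P1361084 gave 0.41, with signals from 114.1 to 169.5 in LV and from 99.1 to 118.8 in RV. That probe supplied the *Myot* signal on 3 of the 4 PA arrays, where A_44_P1361231 read 10.5, 15 and 9.1 and was not well above background. Within A_44_P1361084 the PA difference in mean log2 signal was -0.63 against LA, -0.62 against PV and -0.93 against SA, all smaller than the differences of the highest probe. Within A_44_P1361231, well above background on 1 of the 4 PA arrays, the measured differences were -3.77 against LA, -3.95 against PV and -4.52 against SA, values whose PA side lies mostly near background. The level of *Myot* in PA therefore depends on the probe, while its place as the lowest of the 6 regions was the same for all 3 probes.

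**Figure D3:**
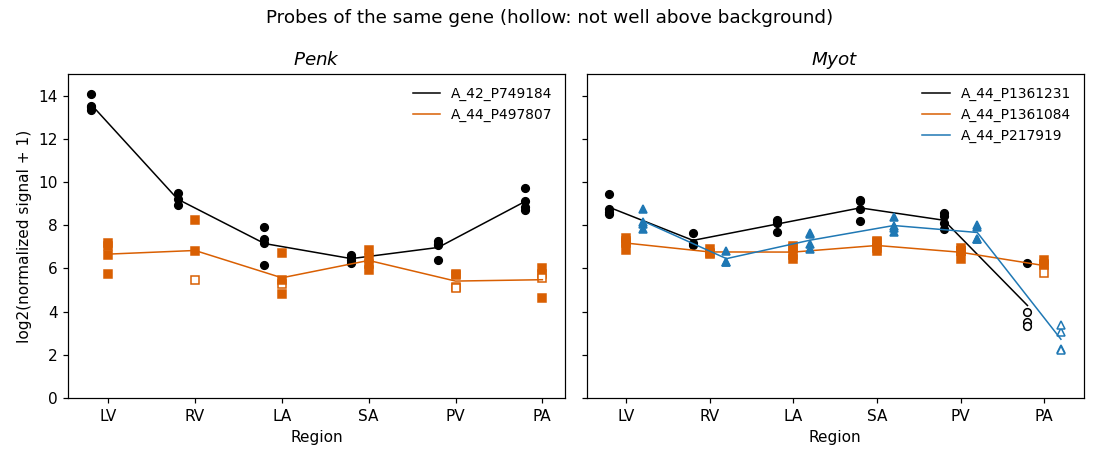
Points are the log2(normalized signal + 1) of each array for each probe of *Penk* and *Myot*, with lines through the means of the regions and hollow points for arrays not well above background. The line of A_42_P749184 falls from LV to SA and is higher again in PA, A_44_P497807 stays flat between LV and RV, while 2 of the *Myot* probes drop in PA and A_44_P1361084 changes little.

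*Vsnl1* was well above background on all 23 arrays with 1 probe, and it ran opposite to *Penk* in the ventricles. Its signals were 100.5, 74.7, 82.8 and 111.4 in LV and 518.2, 457.9 and 511.5 in RV. The 3 RV arrays were close together and all above LV. Mean log2 signals of 6.53 ± 0.26 (SD, n = 4) in LV and 8.95 ± 0.10 (n = 3) in RV gave a difference of -2.43, which is 5.38-fold higher in RV. It was -2.54 on slide 2, -2.55 on slide 3, -2.48 in the first array row and -2.32 in the second. Leaving out 1 array kept it between -2.52 and -2.33, and normexp background correction gave -1.64.

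The signals of this calcium sensor were much higher in the atrial and venous regions. SA gave 5912.8, 5081.7, 6792.3 and 5147.0, PV gave 3398.4, 5249.9, 4004.0 and 3905.3, and LA gave 3564.0, 3482.5, 3199.7 and 3246.6. PA gave 276.0, 234.3, 174.7 and 196.8, between RV and LV with no overlap with either. In the order SA, PV, LA, RV, PA, LV the arrays overlapped only between SA and PV and between PV and LA. *Vsnl1* was lower in PA than in SA by -4.71 on the log2 scale (26.1-fold, standard error 0.15, adjusted p = 2.35e-15), than in PV by -4.23 (18.7-fold, adjusted p = 1.41e-14) and than in LA by -3.95 (15.5-fold, adjusted p = 3.42e-14). It was lower in LA than in SA by -0.76 (1.69-fold, adjusted p = 0.0022). PV minus LA was 0.28 (adjusted p = 0.28), and PV minus SA was -0.48 (95% confidence interval -0.80 to -0.16, adjusted p = 0.101), which passed only without PV replicate 2 (-0.60, adjusted p = 0.0377).

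*Mettl24* had 1 probe, which gave 19.5, 15.4, 7.2 and 10.3 in LV, a level that none of the 4 arrays had well above background. In RV it gave 45.5, 217.3 and 38.4, well above background on all 3. RV replicate 2 was far above the other RV arrays, and each RV array was above each LV array. The mean log2 signals were 3.73 ± 0.58 (SD, n = 4) in LV and 6.20 ± 1.36 (n = 3) in RV, a measured difference of -2.47. With LV raised to its detection floor *Mettl24* was 3.25-fold higher in RV, and without RV replicate 2 it was 1.89-fold higher with a measured difference of -1.69. With normexp background correction the difference was -0.60, a smaller change than either fold. Within batches the difference was -3.62 on slide 2 and -4.0 in the second array row, which hold RV replicate 2, and -1.1 on slide 3 and -1.72 in the first row, which do not.

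*Mettl24* was highest in PA, at 330.1, 308.8, 281.8 and 336.8. LA gave 43.4, 55.6, 60.3 and 69.1, PV gave 31.7, 35.7, 55.4 and 29.6, and SA gave 30.8, 35.2, 14.3 and 10.6. PV was well above background on 2 of 4 arrays and SA on 1 of 4. RV overlapped with LA and PV, LA with PV, PV with SA, and SA with LV, whereas PA overlapped with no region. It was higher in PA than in LA by 2.46 (5.49-fold, standard error 0.45, adjusted p = 9.8e-05), than in PV by 3.05 (adjusted p = 7.97e-06) and than in SA by 3.89 (adjusted p = 2.91e-07). With dim arrays raised to their detection floor, the last 2 differences were 2.94 and 3.45, and with normexp background correction 1.68 and 1.74. LA minus SA was 1.43 (adjusted p = 0.0356), or 1.0 with the dim arrays so raised, and this call was lost with normexp background correction (0.07) or a pseudocount of 16 (0.96) and in 5 of the 23 fits with 1 array left out. PV minus LA (-0.60, adjusted p = 0.465) and PV minus SA (0.84, adjusted p = 0.389) did not pass.

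**Figure D4:**
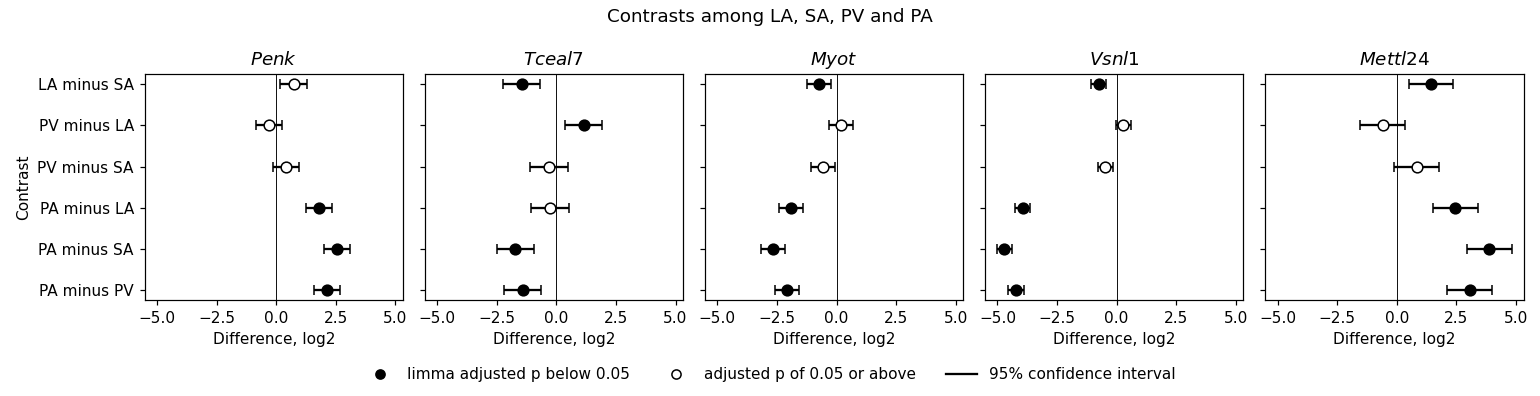
Points are log2 differences between 2 of the regions LA, SA, PV and PA with 95% confidence intervals from the limma fit, filled where the adjusted p was below 0.05. For every gene except *Tceal7* the 3 contrasts with PA lie farthest from 0, above it for *Penk* and *Mettl24* and below it for *Vsnl1* and *Myot*, while the 3 contrasts among LA, SA and PV lie within 1.5 of it.

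Counted over the 5 genes, 4 were called between LA and SA, where 15.3% of all genes were called, with *Mettl24* higher in LA (8.26% of all genes) and *Tceal7*, *Vsnl1* and *Myot* higher in SA (7.03%). Between PV and LA 1 gene, *Tceal7*, was called as higher in PV, beside 13.5% of all genes, 6.99% higher in PV and 6.51% higher in LA. Between PV and SA limma called 0 of the 5, beside 3.49% of all genes, and 2 of them, *Vsnl1* and *Myot*, had an unadjusted p below 0.05, beside 15.9% of all genes. PA differed from LA in 4 of the 5, beside 52.1% of all genes. *Penk* and *Mettl24* were higher in PA (27.1% of all genes) and *Vsnl1* and *Myot* higher in LA (24.9%). PA differed from SA in all 5, beside 53.6% of all genes, with 2 higher in PA (29%) and 3 higher in SA (24.6%). From PV it also differed in all 5, beside 53.4%, with 2 higher in PA (29.7%) and 3 higher in PV (23.7%). Most genes of the array were called against PA.

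The 5 genes did not share 1 pattern over the 23 arrays. Pearson's r of the log2 signals was 0.77 between *Penk* and *Tceal7*, -0.89 between *Penk* and *Vsnl1*, -0.83 between *Mettl24* and *Myot*, -0.69 between *Tceal7* and *Mettl24*, and 0.07 between *Penk* and *Myot*. These values describe arrays that fall into regions, and they share the LV and RV arrays on which the genes were chosen.

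RV replicate 2 also differed from RV replicates 1 and 3 in genes of other tissues. Its log2 signal exceeded the mean of those arrays by 2.35 for *Mettl24*, by 2.53 for *Mybphl* and by 2.12 for *Sln*, both genes of atrial myocytes, by 2.91 for *Adipoq*, the adiponectin gene of fat cells, and by 1.67 for *Hoxa2*, which was highest in PA. Not all genes of these lists followed. *Kcnj3* of the atrial list was 10.40 on RV replicate 2 against 11.17 and 10.59 on RV replicates 1 and 3, and *Lep* of the adipocyte list 4.82, not well above background, against 6.0 and 5.92. The 7 adipocyte genes had a mean log2 signal of 8.32 on RV replicate 2 against 8.21 and 8.26, and the 10 atrial genes summed to 259100 against 245900 and 256300, with a mean log2 signal of 10.74 against 9.89 and 10.35. Genes of smooth muscle and the vessel wall differed less, with 0.39 for *Myh11*, 0.30 for *Itga8* and 0.42 for *Eln*. *Mettl24* on that array was 0.53 below its mean in PA, while *Myh11* was 5.95 and *Itga8* 8.11 below theirs. *Vsnl1* differed by -0.17, *Tceal7* by -0.35, *Penk* by 0.45 and *Myot* by 0.55. The summed signal of the 7 measured great vessel wall genes was between 7040 and 12090 in LV and between 7536 and 10550 in RV, but their mean log2 signal was higher on every RV array than on any LV array and highest on RV replicate 2 (8.04). On RV replicate 2 the 8 macrophage genes summed to 56480 against 34190 and 37950 on RV replicates 1 and 3. The 8 Schwann cell genes summed to 3793 against 2327 and 2795, while the 5 erythroid genes were lower, at 9495 against 13190 and 12070. The part of these tissues and cells in the *Mettl24* signal was not tested.

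**Figure D5:**
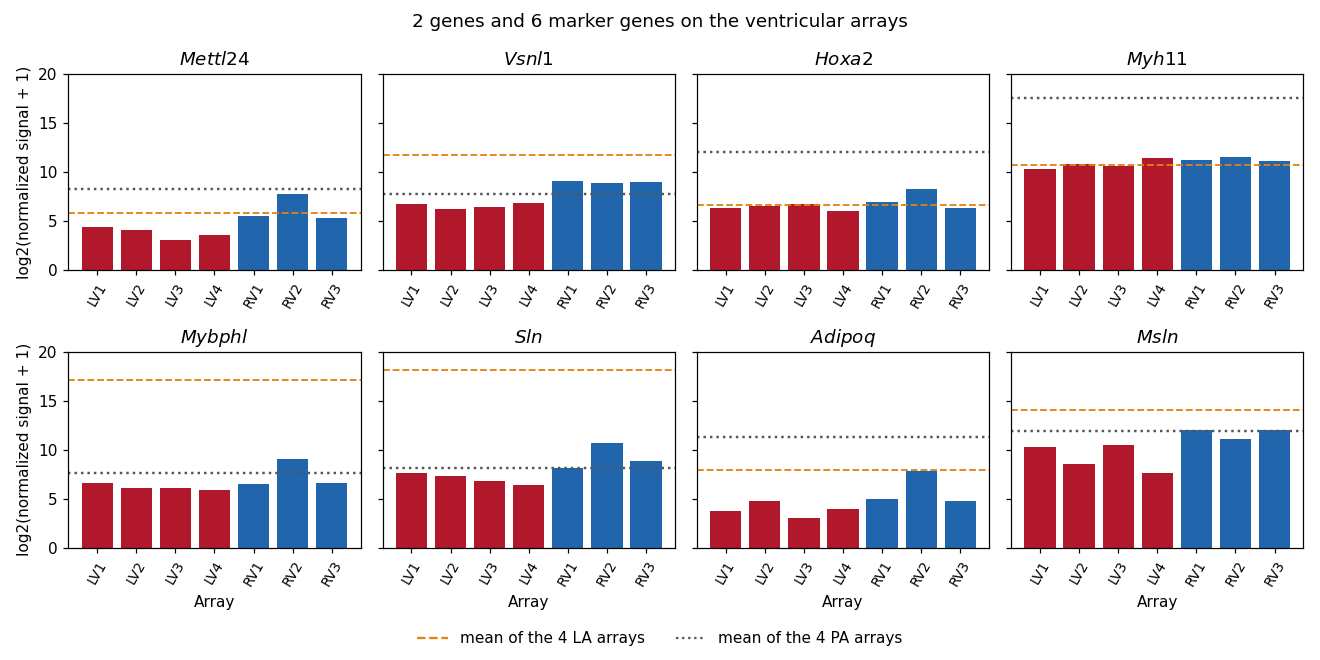
Bars are the log2(normalized signal + 1) of 2 of the genes and 6 marker genes on the 4 LV arrays (red) and 3 RV arrays (blue), with the LA mean dashed and the PA mean dotted. RV replicate 2 rises above the other RV arrays for *Mettl24*, *Hoxa2*, *Mybphl*, *Sln* and *Adipoq* by 1.67 or more over their mean, for *Myh11* by 0.39, and not for *Vsnl1* or *Msln*; *Kcnj3* and *Lep*, not drawn, were lower on it.

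The signals of some marker lists of other cell types also lay apart between LV and RV. By limma no gene was called in the mesothelium, fibroblast, great vessel wall, endothelium, erythroid and ventricular conduction fiber lists. In the cardiac stretch and overload list 1 was called, higher in LV. Some lists lay higher in RV, as did *Vsnl1* and *Mettl24*. The summed signal of 9 measured mesothelium and epicardium genes was between 1302 and 3320 in LV and between 4572 and 7478 in RV, with *Msln* between 7.67 and 10.45 and between 11.15 and 12.04 on the log2 scale. None of the 9 genes was called by limma, and 7 had an unadjusted p below 0.05, 7 of them higher in RV. The 9 measured fibroblast genes summed to between 247400 and 328500 in LV and between 319800 and 358900 in RV. The fibroblast genes had a mean log2 signal of 12.80 to 13.17 on the LV arrays and 13.22 to 13.63 on the RV arrays, and all 9 had the higher mean in RV. The great vessel wall genes also lay higher in RV by their mean log2 signal, 7.12 to 7.45 on LV and 7.59 to 8.04 on RV, with 6 of 7 higher in RV. The summed signal of the 10 atrial myocyte genes was lower in RV (245900 to 259100) than in LV (305600 to 431000), but their mean log2 signals overlapped (10.33 to 11.10 in LV and 9.89 to 10.74 in RV) and 6 of the 10 had the higher mean in LV and 4 in RV. By limma 2 of the 10, *Nppa* and *Myl1*, were called, both higher in LV. Of those with the higher mean in RV, *Sln* ranged from 6.45 to 7.68 in LV and from 8.17 to 10.66 in RV, and *Kcnj3*, an atrial potassium channel gene, from 9.73 to 10.02 and from 10.40 to 11.17. *Vsnl1* was 2.76 lower in RV than in LA, while *Mybphl* was 9.79 and *Sln* 8.94 lower, or 10.63 and 9.65 without RV replicate 2. Other lists lay higher in LV, as did *Penk*, *Tceal7* and *Myot*. The mean log2 signal of the 7 cardiac stretch and overload genes was 14.80 to 15.32 in LV and 13.57 to 13.78 in RV, with 6 of 7 higher in LV. That of the 9 endothelium genes was 11.66 to 12.05 and 11.59 to 11.61, and all 9 had the higher mean in LV though none was called. That of the 5 erythroid genes was 9.49 to 9.88 and 8.66 to 9.31, and all 5 had the higher mean in LV though none was called. The 7 ventricular conduction fiber genes summed to 56610 to 62410 in LV and 46530 to 55920 in RV, while their mean log2 signals overlapped. The part of these cell types in the results was not tested.

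The families and pathways of the 5 genes, and genes of ventricular chamber identity, were compared between LV and RV in lists. These lists were chosen with earlier results of these data known. In lists without the members, limma called 6 of 120 genes higher in LV (5%, beside 0.298% of all genes) and 0 higher in RV (beside 0.224%). Of the 6, 3 came from the chamber identity list, which is no family or pathway of the 5 genes. At an unadjusted p below 0.05 there were 25 (20.8%, beside 10.7% of all genes), 16 higher in LV and 9 higher in RV. Of 10 measured opioid peptide and receptor genes none was called (1 at an unadjusted p below 0.05), and their median LV minus RV difference was 0.16. *Ogfr*, the opioid growth factor receptor, had a mean log2 signal of 13.20 in LV and 13.29 in RV. Of the opioid receptors proper, *Oprd1*, the delta receptor, had 10.28 in LV and 10.09 in RV, and *Oprk1*, the kappa receptor, was not well above background on any ventricular array; these 2 were named after their values were seen. None of 25 genes of neuropeptide processing and degradation was called (4 unadjusted, median 0.007), among them *Ctsb* (16.29 and 16.17), a lysosomal protease, and *Pam* (15.75 and 15.44), which amidates peptides.

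Of 10 TCEAL, BEX and TCEA genes, *Bex1*, a neighbor family member on the X chromosome, was called higher in LV. Its log2 signals were 12.14, 11.61, 11.97 and 12.54 in LV and 9.87, 9.86 and 10.04 in RV. The groups did not overlap, and the difference was 2.14 (standard error 0.20, adjusted p = 6.25e-06), called in all 36 alternatives. The median of this list was 0.03, with 4 of the 10 genes at an unadjusted p below 0.05. Among 27 Z-disc and sarcomere anchoring genes (median 0.14, 9 at an unadjusted p below 0.05 and all 9 higher in LV) *Pdlim5*, a PDZ and LIM domain protein of the Z-disc, was higher in LV by 0.77 (adjusted p = 0.00348) and *Nrap*, an actin-anchoring protein of the intercalated disc, by 0.65 (adjusted p = 0.0117, and 0.085 without RV replicate 2). None of 11 neuronal calcium sensor genes was called (0 unadjusted, median 0.18), with *Kcnip2*, the potassium channel subunit, at 17.61 in LV and 17.79 in RV and *Hpcal1* at 10.51 and 10.30. None of 15 methyltransferase-like genes was called (2 unadjusted, median -0.15), with *Mettl7a* at 14.18 and 13.89 and *Mettl9* at 12.73 and 12.93.

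Of 22 genes of ventricular chamber identity (median 0.09, 5 at an unadjusted p below 0.05), 3 were higher in LV. *Nppa*, the atrial natriuretic peptide gene, was higher by 4.62 (adjusted p = 0.0037), *Irx2*, an Iroquois transcription factor, by 2.49 (adjusted p = 0.0117) and *Irx5*, of the same family, by 0.91 (adjusted p = 0.043). Without RV replicate 2 the adjusted p was 0.0122 for *Nppa*, 0.085 for *Irx2* and 0.108 for *Irx5*, and *Irx5* was called in 14 of 36 alternatives.

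The genes most like each member over the 23 arrays were sought among 13108 genes by Pearson's r, as a description of arrays that share their regions and slides. For *Penk* they were *Irx2* (r = 0.94), *Card9* (0.93), *Ankrd23* (0.91), *Sestd1* (0.90) and *Akip1* (0.88), with Spearman's rho between 0.70 and 0.90. For *Tceal7* they were *Ehd1* (0.91), *Arpc5l* (0.89), *Tex19.2* (0.89), *Ankrd23* (0.89) and *Slc52a3* (0.89), with rho between 0.62 and 0.90. *Ankrd23* stood in both lists and had mean log2 signals of 9.44 in LV, 7.35 in RV and 5.79 to 6.35 in the other 4 regions. *Myot* was most like *Iscu* (0.93), *Bnip3* (0.92), *Atrn* (0.92), *Chst15* (0.92) and *Tspan12* (0.91), with rho between 0.79 and 0.91. *Vsnl1* was most like *Sln* (0.97), *Dhrs7* (0.96), *Mboat2* (0.96), *Mybphl* (0.96) and *Atp1b4* (0.96), with rho between 0.76 and 0.90, and *Mettl24* most like *Mib1* (0.91), *Glmn* (0.91), *Zfp444* (0.91), *Isy1* (0.91) and *Pgap2* (0.90), with rho between 0.86 and 0.94. *Sln* and *Mybphl* were at 9.24 and 7.40 in RV (8.54 and 6.56 without RV replicate 2) and at 18.18 and 17.19 in LA.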

How the data were processed

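RNA of 6 regions was labeled with Cy3 and hybridized to 23 single-color Agilent SurePrint G3 arrays. The deposited intensities are the signals of Agilent Feature Extraction 11.0.1.1 (submitters' processing notes), which the authors background-subtracted, detrended, scaled to an equal 90th percentile and left on a linear scale. The scanner intensities and their marks for signals well above background were also used. Depending on the array, 99.6% to 99.8% of probes, rounded, were within 2% of the processed signal times 1 factor, 0.881 to 1.52.

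Of 45596 probes, 156 with a missing value were removed. Probes were named by matching accessions, without versions, to the RefSeq genes of the rat, and 21047 probes gave 16544 gene symbols, 3638 with more than 1 probe. The highest probe per array was taken, 1 added and log2 taken. The 16089 genes above 4 on at least 1 array were fitted with limma 3.58.1 (in R 4.3.3) over all 23 arrays, 1 mean per region, with Benjamini-Hochberg adjustment per contrast. limma replaces the analysis of variance of the methods because groups hold 3 or 4 arrays, which also limits the precision. A dim group was raised to its detection floor, the lowest signal well above background on each of its arrays. Some signals not so marked exceed this floor, so a fold against it is no strict limit. No probe was saturated. The procedure was tested on simulated data, where 200 of 16089 genes were raised by 1 on the log2 scale in LV. It recovered 55.5% of them, so a gene not called may still differ by that much. Plots were drawn with Python 3.11.15, pandas 2.3.3 and matplotlib 3.10.9.

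The members, gene lists and tests were chosen with earlier results of these data known. Beyond the members, the text names the called genes of each pathway list (at most 3 per direction), or else its 2 brightest, the 5 genes most correlated with each member, and marker genes that describe arrays standing apart. 1 gene that this rule names is not reported here. The alternatives were the scanner signals, 75th percentile, quantile and normexp (offset 50) processing, a pseudocount of 16, no filter or a filter on background, the probe of highest mean, slide, array row or replicate number as a block, only the arrays compared, a trend in the prior variance, and each array left out. The fold of *Mettl24* against the floor without RV replicate 2 was added after the data were seen.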

Additional observations from a re-analysis of the deposited data

How the results depend on the processing

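Among 1079 fits of the tested contrasts of the 5 genes under 36 alternatives, 1033 kept their direction and their side of the threshold, 41 lost the call, 4 gained it and 1 changed direction. That one was PA minus LA of *Tceal7*, 0.24 with normexp correction (adjusted p = 0.245) against -0.27, where both regions were below background; the cause was not tested. With normexp correction the LV minus RV difference was -0.60 for *Mettl24*, 1.99 for *Tceal7* and -1.64 for *Vsnl1*, and with a pseudocount of 16 it was 2.91 for *Tceal7*; the latter follows from the larger value added to dim signals, and the cause of the former was not tested. *Tceal7* lost its call between PA and PV with normexp correction (-0.30, adjusted p = 0.176).

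The counts of members called were 0 between PV and LA, in place of 1, with 75th percentile scaling, a pseudocount of 16, no filter, slide or row as a block, only the arrays compared, or a trend in the prior variance. With 1 array left out they were 0 to 1 between PV and LA, 0 to 1 between PV and SA, and 2 to 5 between LA and SA. *Penk* entered the last without LA replicate 4 or PA replicate 1, and 2 were left without LA replicate 2, LA replicate 3 or SA replicate 3.

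Of all genes, 48 were called higher in LV and 36 higher in RV. The filter on background gave 75 and 62, the prior trend 80 and 64, and only the 7 ventricular arrays 9 and 4. With 1 array left out, the counts were 23 to 60 and 18 to 45, lowest without RV replicate 2. Leaving out RV replicate 1 gave 24 and 22, LV replicate 2 gave 31 and 21, and LV replicate 3 gave 23 higher in RV. Of the pathway lists, 6 genes were higher in LV; this was 2 with only the arrays compared and 3 to 7 with 1 array left out, lowest without RV replicate 2. Higher in RV were 0, or 1 with the background filter, the prior trend, or without LV replicate 1 or RV replicate 1. At an unadjusted p below 0.05, 1727 genes (10.7%) differed between LV and RV.

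No sign was seen that replicate numbers pair the arrays, though 3 or 4 arrays per region cannot settle this. The deviations of same-numbered arrays of different regions correlated with a median of -0.04 over 55 pairs, 12 of them above 0.1, against 0.00 over 165 other pairs. With the replicate block, 44 genes were called higher in LV and 35 higher in RV, 5 list genes were higher in LV, and no call of the 5 genes changed. The LV minus RV differences with the replicate block were 4.41 for *Penk*, 3.33 for *Tceal7*, 1.59 for *Myot*, -2.42 for *Vsnl1* and -2.40 for *Mettl24*. Dim signals limit *Tceal7* outside LV and *Mettl24* in LV, PV and SA, where most values lie near background.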

Other observations

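2 further genes of the chamber identity list had large differences that did not pass, and they were chosen after their values were seen. *Nppb*, the brain natriuretic peptide gene, had a mean log2 signal of 16.29 ± 0.56 (SD, n = 4) in LV and 13.04 ± 0.23 (n = 3) in RV, a difference of 3.25 in the limma fit (adjusted p = 0.0518), and it was called in 13 of 36 alternatives, with an adjusted p between 0.00373 and 0.172. *Fgf10*, a growth factor gene, had 4.06 ± 0.52 in LV, well above background on 1 of 4 arrays, and 6.22 ± 1.91 in RV, well above background on all 3, a difference of -2.15 (adjusted p = 0.185).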
